A study of Mus musculus with 9 samples.

Results

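The 10 genes described here are a Wnt ligand (Wnt6), intracellular and secreted inhibitors of the pathway (Axin2, Nkd1, Notum and Sfrp2), the 4 TCF/LEF transcription factors (Tcf7, Lef1, Tcf7l1 and Tcf7l2) and the target transcription factor Sp5. They were chosen by name, with earlier results of these data known, and matched by symbol to 10 of the 52636 Ensembl gene IDs of a read count table. All 10 passed the filter on low counts, which left 16198 genes to test. The cells were mouse embryonic stem cells of 3 lines, with 3 libraries each, and the 10 genes were compared between the lines.

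By their titles, 44JN is NanogKO:Esrrb:Nanog (here Esrrb+Nanog), 44J is NanogKO:Esrrb (here Esrrb) and 44C6 is NanogKO. All lines therefore share the Nanog knockout named in their titles. The labels give the genotype N{delta} for the NanogKO line and N{delta}:cE:iN for both others, and do not spell these strings out, so the added genes are known here from the titles. Which part of Nanog was removed, what drives the added genes and whether a line is a clone are not given in the labels. All cells grew in serum with leukaemia inhibitory factor, in a medium whose listed components include no Wnt protein and no GSK3 inhibitor, with no other treatment, and were sorted for surface PECAM and absence of PDGFRA. Each group is a single line, so an added gene and other differences between the lines cannot be told apart. The labels do not say that replicates were separate cultures, so the spread that p-values measure is that between these libraries, and may be technical.

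Wnt proteins are secreted lipid-modified ligands that bind Frizzled receptors and the co-receptors LRP5 and LRP6. Binding stops a complex of AXIN, APC and GSK3 from marking beta-catenin for destruction, and beta-catenin then joins TCF/LEF factors on DNA. In mouse embryonic stem cells the TCF/LEF factor TCF7L1 is known as a repressor of pluripotency genes, Esrrb among them, which beta-catenin relieves. Axin2, Nkd1, Notum and Sp5 are widely used as genes that the pathway itself turns on, and the first 3 of these feed back to restrain it.

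The promoters are shown first because the 10 genes were searched for the letters that TCF/LEF factors and ESRRB are known to bind. RefSeq windows of build GRCm38.p6, 250 bases before to 50 after a transcript start, were matched for 9 of the 10 genes, in 14 windows, and none was matched for Notum. The motifs were CTTTGAT and CTTTGTT for TCF/LEF, and AAGGTCA, the core of the element that ESRRB binds, on both strands, with no overlap between matches. Of all 32851 windows, 3.73% held CTTTGAT, 5.85% CTTTGTT and 4.72% AAGGTCA, and 9.33% held either TCF/LEF motif. Shown are the 3 windows with a match, and those of Wnt6 and Axin2, the genes with the smallest p-values among those that rose against NanogKO cells, which hold no match. Capitals mark the matches, and each sequence reads 5′ to 3′ on the strand of the gene.
Sp5, chr2:70474673-70474972, plus strand: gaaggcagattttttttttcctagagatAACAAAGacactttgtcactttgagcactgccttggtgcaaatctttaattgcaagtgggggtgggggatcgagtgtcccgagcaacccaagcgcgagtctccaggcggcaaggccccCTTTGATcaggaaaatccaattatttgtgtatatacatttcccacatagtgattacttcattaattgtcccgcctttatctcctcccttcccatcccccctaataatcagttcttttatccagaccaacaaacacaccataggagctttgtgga
Tcf7l2, internal start, chr19:55895071-55895370, plus strand: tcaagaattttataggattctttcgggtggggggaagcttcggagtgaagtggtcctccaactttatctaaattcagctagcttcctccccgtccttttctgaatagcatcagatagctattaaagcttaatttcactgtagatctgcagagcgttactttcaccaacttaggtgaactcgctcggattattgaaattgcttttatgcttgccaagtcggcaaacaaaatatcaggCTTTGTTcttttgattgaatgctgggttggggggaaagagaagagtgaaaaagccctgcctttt
Tcf7, internal start, chr11:52282546-52282845, minus strand: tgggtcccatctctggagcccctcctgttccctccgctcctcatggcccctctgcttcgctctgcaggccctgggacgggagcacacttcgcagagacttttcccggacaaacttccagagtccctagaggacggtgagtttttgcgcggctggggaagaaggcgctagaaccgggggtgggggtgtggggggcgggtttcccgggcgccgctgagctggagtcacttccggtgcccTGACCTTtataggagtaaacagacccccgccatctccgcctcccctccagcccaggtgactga
Wnt6, chr1:74771642-74771941, plus strand: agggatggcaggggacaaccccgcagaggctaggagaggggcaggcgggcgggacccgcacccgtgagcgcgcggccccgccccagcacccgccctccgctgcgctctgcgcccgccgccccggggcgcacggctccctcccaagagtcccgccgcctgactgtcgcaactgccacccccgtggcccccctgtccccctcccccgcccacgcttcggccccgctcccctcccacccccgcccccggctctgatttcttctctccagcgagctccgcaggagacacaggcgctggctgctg
Axin2, chr11:108920099-108920398, plus strand: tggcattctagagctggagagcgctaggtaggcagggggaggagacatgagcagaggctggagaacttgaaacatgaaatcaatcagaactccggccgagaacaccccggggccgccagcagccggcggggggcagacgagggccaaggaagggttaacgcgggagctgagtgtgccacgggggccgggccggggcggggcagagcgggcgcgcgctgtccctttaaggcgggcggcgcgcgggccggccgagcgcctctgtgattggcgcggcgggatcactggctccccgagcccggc

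The Sp5 window held both TCF/LEF motifs. The match to CTTTGAT began 104 bases before the start, and the match to CTTTGTT, on the other strand, lay at 222 bases before it. The match of Tcf7l2 to CTTTGTT lay 14 bases before an internal start, and that of Tcf7 to AAGGTCA lay 13 bases before an internal start, on the other strand. The other windows of the 9 genes held none of these letters. The only Nkd1 window, chr8:88527383-88527682, lay at an internal start, since the gene begins at 88521354. The sequence at the annotated 5′ end of Nkd1 was therefore not searched. A match describes the sequence and is not a measured binding site, and a window without one says nothing of binding elsewhere.

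Levels are normalised read counts, given as CPM (counts per 1000000 counts of a library, after scaling for its composition). A gene is called where its adjusted p in edgeR's quasi-likelihood test, corrected over all tested genes by the Benjamini-Hochberg method, is below 0.05. Means are given ± SD over the 3 libraries of a line. Nanog was highest in the line titled with Nanog, and Esrrb was higher in both lines titled with Esrrb than in NanogKO, but both genes also differed beyond the titles. Nanog was at 221, 289.5 and 333 CPM with Esrrb+Nanog, at 29.7, 35.1 and 30.4 CPM with Esrrb, and at 14.3, 14.3 and 16.0 CPM in NanogKO. Esrrb was at 1113, 1151 and 1056 CPM with Esrrb+Nanog, at 769, 949 and 692 CPM with Esrrb, and at 273, 253 and 303 CPM in NanogKO. Both were higher in every library of Esrrb+Nanog cells than in any Esrrb library, and higher in every Esrrb library than in any NanogKO library. Esrrb was called higher in Esrrb+Nanog cells against Esrrb cells (log2 change 0.46, adjusted p = 0.0133). That call ended without Esrrb+Nanog replicate 2 (adjusted p = 0.0544) or Esrrb replicate 1 (0.0633). Nanog was called higher in Esrrb cells against NanogKO cells (log2 change 1.09, adjusted p = 5.92e-05), although the title of the Esrrb line adds no Nanog. Reads of Nanog were thus present in NanogKO cells too, and a count per gene does not show which part was removed. Library totals ran from 21808120 to 32496267 counts, so 1 CPM stood for 21.6 to 31.8 reads. The 5 general pluripotency markers were above 1 CPM in every line and summed to 2680 to 2910 CPM in Esrrb+Nanog, 3080 to 3190 in Esrrb and 2430 to 2580 in NanogKO libraries. The 10 naive markers, with Esrrb and Nanog among them, summed to 4450 to 4600, 3420 to 4010 and 1420 to 1650 CPM in the same order of lines.

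Summed levels of markers of other cell types varied between the lines. The 10 primitive endoderm markers, 1 to 3 of them under 1 CPM in a line, summed to 406 to 482 CPM in Esrrb+Nanog, 236 to 362 in Esrrb and 60.1 to 194 in NanogKO libraries. Lama1 alone, a basement membrane gene, made up 330 to 404, 103 to 183 and 28.1 to 64.1 CPM of these sums. The other 9 summed to 71.4 to 84.2 CPM in Esrrb+Nanog, 132 to 179 in Esrrb and 32.0 to 130 in NanogKO libraries, and so were lower in Esrrb+Nanog than in Esrrb libraries. Of the 9 tested markers, 1 rose (Lama1) in Esrrb+Nanog cells against Esrrb cells and 4 fell (Gata6, Pdgfra, Dab2 and Cubn), with a median log2 change of -1.06. The 10 trophoblast markers summed to 54.6 to 63.7, 40.3 to 65.6 and 104 to 254 CPM, and Elf5 had no count in Esrrb cells. The 8 fibroblast and stromal markers summed to 7.83 to 14.4, 7.49 to 13.8 and 14.0 to 84.5 CPM, of which Acta2 made up at most 0.105, at most 0.0944, and 7.69 to 54.3 CPM. Thy1 went the other way, averaging 9.24 ± 3.0 CPM in Esrrb+Nanog, 8.96 ± 3.2 in Esrrb and 2.27 ± 0.20 in NanogKO cells. Of the 5 tested, only Thy1 rose against NanogKO cells, while 4 fell in Esrrb cells and 3 in Esrrb+Nanog cells. Postn had no count in either line with added Esrrb, Col3a1 none in Esrrb+Nanog cells and Twist2 none in Esrrb cells. The 8 streak and mesoderm markers summed to 18.7 to 28.8, 17.8 to 29.0 and 11.2 to 13.1 CPM, with Msgn1 at 0 in Esrrb+Nanog cells. Without Kdr, a receptor gene at 7.72 to 15.2, 8.38 to 18.6 and 1.31 to 1.62 CPM, the streak and mesoderm sums of all 9 libraries lay between 9.41 and 13.6 CPM. In Esrrb cells against NanogKO cells only Kdr of the 5 tested rose and Tbx6 fell, with a median log2 change of -0.11. The 7 neuroectoderm markers summed to 24.3 to 32.9, 14.1 to 18.6 and 24.8 to 39.3 CPM. NanogKO replicate 2 held the highest primitive endoderm, trophoblast, fibroblast and neuroectoderm sums of its line. The part of these cells in the results was not tested. In these bulk samples, fewer cells of a type and less RNA per cell cannot be told apart.

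Esrrb cells were compared with NanogKO cells to ask what added Esrrb changes with Nanog knocked out, though Nanog was also called higher there. Of the 10 genes, Wnt6, Axin2, Notum and Sp5 rose, Lef1, Tcf7, Tcf7l1, Tcf7l2 and Sfrp2 fell, and Nkd1 was not called. Across all tested genes 48.5% were called in this comparison, 24.2% higher and 24.2% lower, against 9 of these 10. Their median log2 change was -0.32, beside 0.01 over all tested genes. Without NanogKO replicate 2, 4 were higher and 4 lower, since Tcf7l2 was no longer called (log2 change -0.32, adjusted p = 0.0609).

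In Esrrb+Nanog cells against NanogKO cells, Wnt6, Axin2, Notum and Sp5 rose and Lef1, Tcf7, Tcf7l1 and Sfrp2 fell, while Nkd1 and Tcf7l2 were not called. There 54.4% of all tested genes were called, 27.2% higher and 27.2% lower, against 8 of these 10. The same 4 higher and 4 lower counts were found without NanogKO replicate 2. The median log2 change of the 10 was 0.13, beside 0.002 over all tested genes. Its sign thus differed from that in Esrrb cells against NanogKO cells, although the same 4 genes rose. Esrrb+Nanog cells were compared with Esrrb cells to ask what Nanog changes beyond added Esrrb, though Esrrb was also called higher there. In that comparison 13.2% of all tested genes were called, 5.43% higher and 7.75% lower. Of the 10 genes, Wnt6 and Sfrp2 fell, Tcf7l2 rose and 7 were not called, with a median log2 change of -0.07 beside -0.01 over all tested genes. The 3 comparisons share libraries, so they are not independent of each other. Wnt6 and Sp5 passed the filter on low counts only through the lines with added Esrrb (0.374 CPM in at least 3 libraries). They were thus tested because of the cells where they are high. The 10 genes were also chosen with earlier results of these data known, and these counts of called genes are a description.

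**Figure D1:**
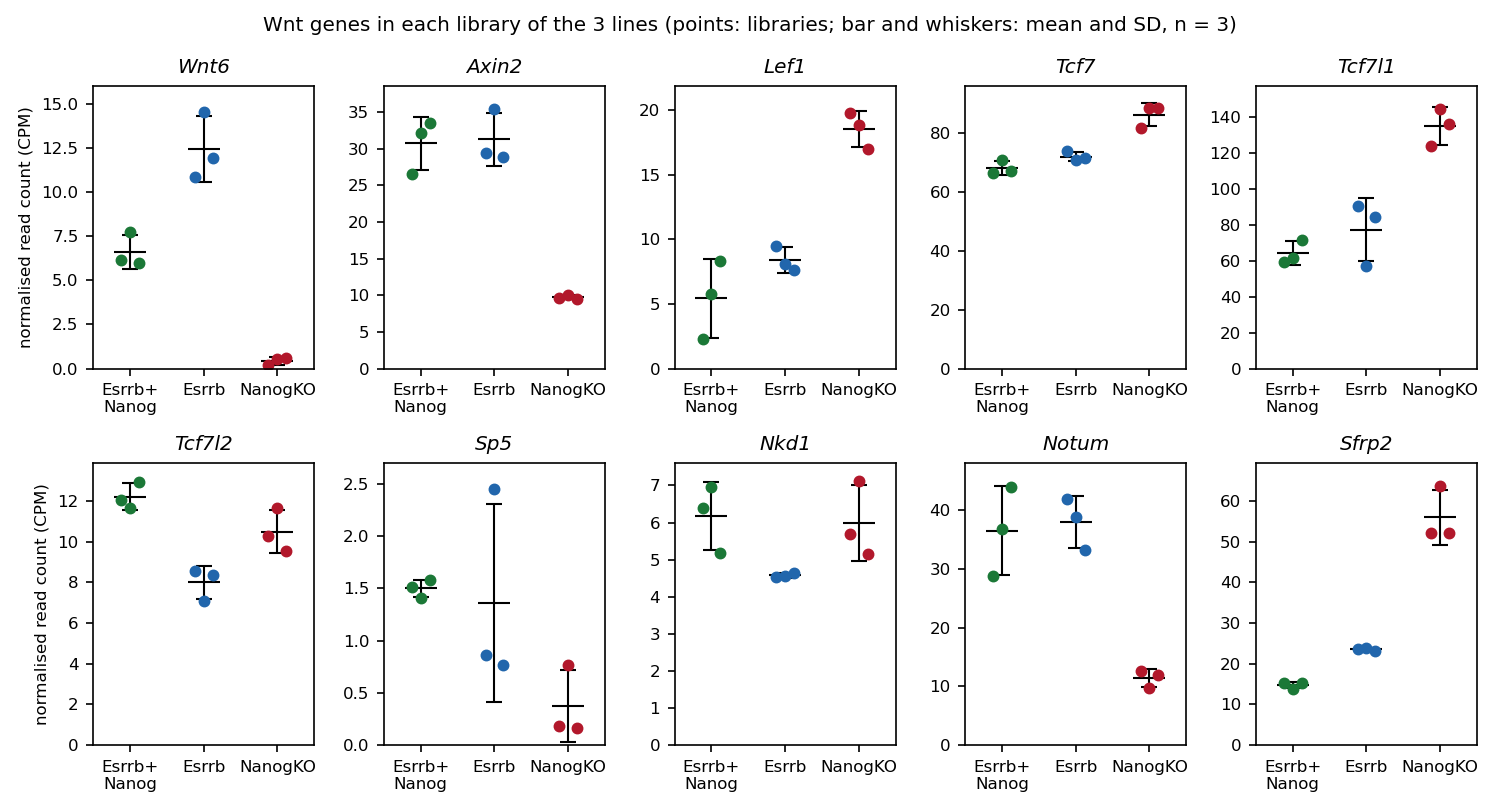
Normalised read counts (CPM, vertical axis) of the 10 Wnt genes in each library of the Esrrb+Nanog, Esrrb and NanogKO lines, as points, with the mean and SD of 3 libraries as bar and whiskers. Axin2, Notum and Wnt6 lie higher in both lines with added Esrrb than in any NanogKO library, Sfrp2, Lef1, Tcf7 and Tcf7l1 lie lower, and Sp5, Nkd1 and Tcf7l2 overlap between some lines.

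Wnt6 (ENSMUSG00000033227, chromosome 1, 74771892 to 74785322, mm10, GENCODE M21), the ligand of the group, was nearly silent in NanogKO cells and had its highest level in Esrrb cells. It was at 6.17, 7.72 and 5.99 CPM with Esrrb+Nanog, at 10.9, 14.5 and 11.9 CPM with Esrrb, and at 0.185, 0.539 and 0.569 CPM in NanogKO. The 3 lines did not overlap. Summed over 3 libraries each, Wnt6 had 530 reads in Esrrb+Nanog, 1087 in Esrrb and 35 in NanogKO cells. Wnt6 rose in Esrrb cells against NanogKO cells (log2 change 4.78 ± 0.26 (SE), adjusted p = 1.30e-07), and in Esrrb+Nanog cells against NanogKO cells (log2 change 3.87 ± 0.27 (SE), adjusted p = 5.22e-07). It fell in Esrrb+Nanog cells against Esrrb cells (log2 change -0.91 ± 0.19 (SE), adjusted p = 0.00807). The order was thus Esrrb, then Esrrb+Nanog, then NanogKO, and every neighbouring pair differed.

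Wnt10a, another ligand gene, begins 6194 bases beyond the end of Wnt6, and was looked at after its values were seen. It had 67 reads in Esrrb+Nanog libraries, 83 in Esrrb libraries and 2 in NanogKO libraries. Esrrb cells were at 37.0 times the NanogKO level (95% counting interval 9.94 to 311, edgeR adjusted p = 1.34e-05). Esrrb+Nanog cells were at 32.2 times the NanogKO level (8.58 to 271, adjusted p = 1.65e-05). These intervals cover counting error only. Between the Esrrb+Nanog and Esrrb lines Wnt10a was not called (adjusted p = 0.7), and whether that difference is unlike the fall of Wnt6 was not tested. The rise was not shared by all tested genes within 100 kb of Wnt6. Ttll4 was lower in Esrrb cells than in NanogKO cells (log2 change -0.92, adjusted p = 1.08e-05), as was Cyp27a1, a sterol hydroxylase gene (log2 change -1.14, adjusted p = 0.0202), and Cdk5r2 was not called (0.33, adjusted p = 0.27).

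Axin2 (ENSMUSG00000000142, chromosome 11, 108920349 to 108950783) encodes a scaffold of the complex that destroys beta-catenin, and is a common readout of the pathway. It was at 26.6, 32.1 and 33.5 CPM with Esrrb+Nanog, at 29.5, 35.4 and 28.9 CPM with Esrrb, and at 9.69, 10.0 and 9.53 CPM in NanogKO. All 6 libraries of the lines with added Esrrb lay above all NanogKO libraries, and the 2 lines with added Esrrb overlapped. Axin2 rose in Esrrb cells against NanogKO cells (log2 change 1.68 ± 0.11 (SE), adjusted p = 5.86e-07) and in Esrrb+Nanog cells against NanogKO cells (log2 change 1.66 ± 0.11 (SE), adjusted p = 4.48e-07). Between Esrrb+Nanog cells and Esrrb cells it was not called (log2 change -0.03 ± 0.10 (SE), adjusted p = 0.901).

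Notum (ENSMUSG00000042988, chromosome 11, 120653788 to 120661175) encodes a secreted enzyme that removes the lipid from Wnt proteins. It was at 28.8, 36.8 and 44.0 CPM with Esrrb+Nanog, at 41.8, 38.9 and 33.2 CPM with Esrrb, and at 12.6, 9.67 and 11.9 CPM in NanogKO. The pattern was that of Axin2, with no overlap between NanogKO cells and the others, and with overlap between the lines with added Esrrb. Notum rose in Esrrb cells (log2 change 1.74 ± 0.16 (SE), adjusted p = 4.87e-06) and in Esrrb+Nanog cells (log2 change 1.69 ± 0.16 (SE), adjusted p = 4.39e-06) against NanogKO cells, and was not called between the Esrrb+Nanog and Esrrb lines (log2 change -0.06 ± 0.15 (SE), adjusted p = 0.842). The antisense gene Notumos overlaps exons of Notum and held 650 reads in Esrrb+Nanog, 796 in Esrrb and 161 in NanogKO libraries, against 2952, 3313 and 877 for Notum. Another antisense gene over exons of Notum, Myadml2os, held 132, 142 and 27 reads in the same lines and was called higher in Esrrb cells against NanogKO cells (log2 change 2.20, adjusted p = 0.000119). No strand setting of the counting is stated, so where their exons overlap, reads of Notum and of these antisense genes cannot be told apart. Antisense genes that overlap exons of Axin2, Lef1, Tcf7l1 and Sfrp2 held 0 to 33 reads per line.

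Nkd1 (ENSMUSG00000031661, chromosome 8, 88521354 to 88594884), an inhibitor that binds Dishevelled, did not share that rise. It was at 6.39, 6.96 and 5.18 CPM with Esrrb+Nanog, at 4.53, 4.56 and 4.65 CPM with Esrrb, and at 5.70, 7.13 and 5.15 CPM in NanogKO. The Esrrb libraries lay below all others, and the Esrrb+Nanog and NanogKO lines overlapped. No comparison passed the test, with a log2 change of -0.39 ± 0.16 (SE) and an adjusted p of 0.0652 in Esrrb cells against NanogKO cells. The log2 change was 0.43 ± 0.16 (SE, adjusted p = 0.102) in Esrrb+Nanog cells against Esrrb cells, and 0.04 ± 0.16 (SE, adjusted p = 0.84) against NanogKO cells. Without NanogKO replicate 3 the lower level in Esrrb cells was called (adjusted p = 0.0412, range 0.0412 to 0.233 over its alternatives).

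Sfrp2 (ENSMUSG00000027996, chromosome 3, 83766321 to 83774316) encodes a secreted protein that binds Wnt ligands, and went down stepwise over the lines. It was at 15.2, 13.9 and 15.4 CPM with Esrrb+Nanog, at 23.6, 23.9 and 23.2 CPM with Esrrb, and at 52.1, 63.7 and 52.1 CPM in NanogKO. No libraries of different lines overlapped. Sfrp2 fell in Esrrb cells against NanogKO cells (log2 change -1.25 ± 0.09 (SE), adjusted p = 9.99e-07), in Esrrb+Nanog cells against Esrrb cells (log2 change -0.67 ± 0.09 (SE), adjusted p = 0.000904) and in Esrrb+Nanog cells against NanogKO cells (log2 change -1.92 ± 0.09 (SE), adjusted p = 3.50e-08). The secreted antagonists of the group thus moved in opposite directions against NanogKO cells, with Notum higher and Sfrp2 lower in both lines with added Esrrb.

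Sp5 (ENSMUSG00000075304, chromosome 2, 70474923 to 70477729), a zinc-finger factor that Wnt signalling induces, had few reads. It was at 1.51, 1.41 and 1.58 CPM with Esrrb+Nanog, at 0.864, 2.45 and 0.768 CPM with Esrrb, and at 0.185, 0.770 and 0.167 CPM in NanogKO. Esrrb replicate 2 stood above the other Esrrb libraries, and NanogKO replicate 2 above the other NanogKO libraries and close to 2 of the Esrrb libraries. The underlying counts were 41, 35 and 45 in Esrrb+Nanog, 25, 78 and 20 in Esrrb and 4, 20 and 5 in NanogKO libraries. The Esrrb+Nanog libraries lay above all NanogKO libraries, and the Esrrb range held the range of Esrrb+Nanog cells. Sp5 rose in Esrrb cells against NanogKO cells (log2 change 1.87 ± 0.57 (SE), adjusted p = 0.017), and in Esrrb+Nanog cells against NanogKO cells (log2 change 1.99 ± 0.57 (SE), adjusted p = 0.0109). The first of these calls ended without Esrrb replicate 2 (log2 change 1.12, adjusted p = 0.0938), NanogKO replicate 1 (adjusted p = 0.0625) or NanogKO replicate 3 (adjusted p = 0.0811), and the second without NanogKO replicate 3 (adjusted p = 0.0543). The ranges over their alternatives were 1.88e-07 to 0.0938 and 2.09e-08 to 0.0543. Without NanogKO replicate 2 the log2 changes were 2.94 in Esrrb cells and 3.06 in Esrrb+Nanog cells. Between the Esrrb+Nanog and Esrrb lines Sp5 was not called (log2 change 0.12 ± 0.46 (SE), adjusted p = 0.905), and the log2 change was 0.87 without Esrrb replicate 2.

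**Figure D2:**
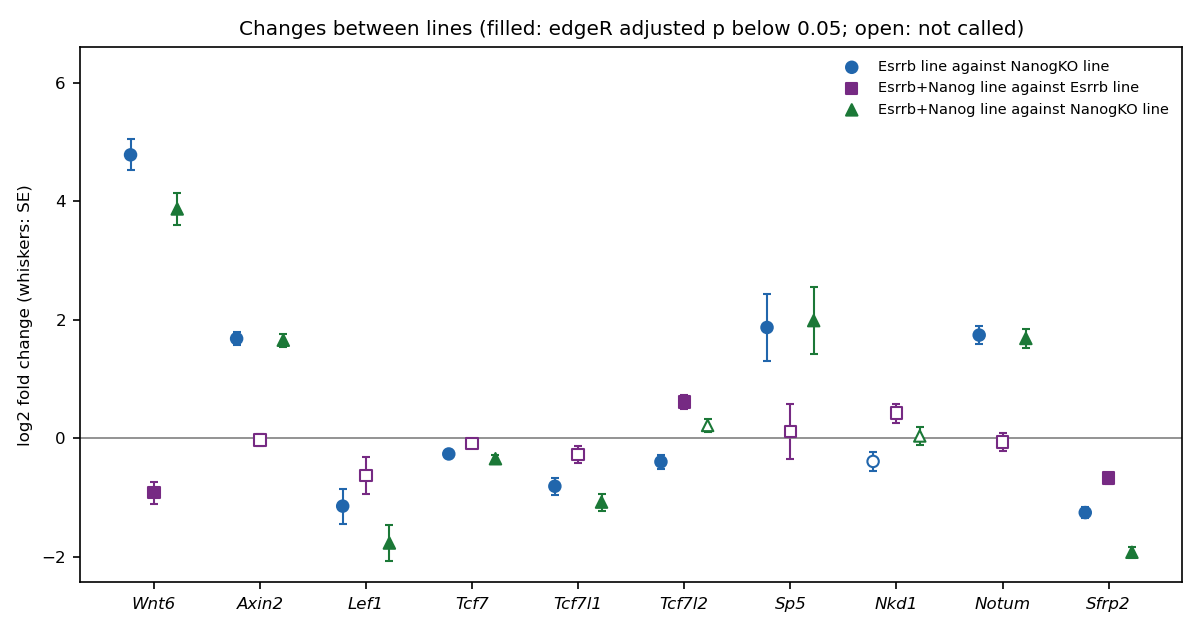
Log2 fold changes (vertical axis, with SE) of the 10 genes in the 3 comparisons between lines, filled where edgeR called them. Wnt6 has the largest changes against NanogKO cells (4.78 in Esrrb cells and 3.87 in Esrrb+Nanog cells), and between the Esrrb+Nanog and Esrrb lines only Wnt6, Tcf7l2 and Sfrp2 are filled.

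The TCF/LEF factors carry the signal to DNA, and all 4 were lower in Esrrb cells than in NanogKO cells. Compared per length of their exons, as CPM per kilobase (RPKM), Tcf7 and Tcf7l1 were the abundant members in every line. Tcf7 was at 25.9 ± 0.88 RPKM in Esrrb+Nanog cells, 27.4 ± 0.60 in Esrrb cells and 32.8 ± 1.5 in NanogKO cells (SD, n = 3 each). Tcf7l1 was at 16.4 ± 1.7, 19.7 ± 4.5 and 34.4 ± 2.7 RPKM in the same lines. Lef1 and Tcf7l2 stood far below both, with Lef1 at 0.620 ± 0.35, 0.956 ± 0.11 and 2.11 ± 0.16 RPKM and Tcf7l2 at 1.39 ± 0.075, 0.913 ± 0.092 and 1.20 ± 0.12 RPKM. These levels use the length of all annotated exons, and a gene whose transcripts use fewer of them would be understated.

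Tcf7l1 (ENSMUSG00000055799, chromosome 6, 72626378 to 72789254), the repressor among them, fell in both lines with added Esrrb. It was at 59.4, 61.5 and 71.7 CPM with Esrrb+Nanog, at 90.4, 57.2 and 84.4 CPM with Esrrb, and at 124, 145 and 136 CPM in NanogKO. Every NanogKO library lay above every other, and Esrrb replicate 2 stood below the other Esrrb libraries and below the Esrrb+Nanog libraries. Tcf7l1 fell in Esrrb cells (log2 change -0.81 ± 0.14 (SE), adjusted p = 0.00065) and in Esrrb+Nanog cells (log2 change -1.07 ± 0.14 (SE), adjusted p = 6.80e-05) against NanogKO cells. Between the Esrrb+Nanog and Esrrb lines it was not called (log2 change -0.27 ± 0.14 (SE), adjusted p = 0.253). Without Esrrb replicate 2 that difference was called (log2 change -0.45, adjusted p = 0.00794, range 0.00794 to 0.641 over its alternatives).

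Tcf7 (ENSMUSG00000000782, chromosome 11, 52252371 to 52283014), often an activator once bound by beta-catenin, changed least among the called genes of the group. It was at 66.5, 70.7 and 66.9 CPM with Esrrb+Nanog, at 73.7, 70.7 and 71.4 CPM with Esrrb, and at 81.6, 88.4 and 88.5 CPM in NanogKO. The NanogKO libraries lay above all others, and the Esrrb+Nanog libraries just below the Esrrb libraries. Tcf7 fell in Esrrb cells (log2 change -0.26 ± 0.06 (SE), adjusted p = 0.00324) and Esrrb+Nanog cells (log2 change -0.34 ± 0.06 (SE), adjusted p = 0.000456) against NanogKO cells, and was not called between the Esrrb+Nanog and Esrrb lines (log2 change -0.08 ± 0.06 (SE), adjusted p = 0.416).

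Lef1 (ENSMUSG00000027985, chromosome 3, 131110471 to 131224356), which acts with beta-catenin and is itself a target of the pathway in many tissues, had the largest fall among the TCF/LEF genes. It was at 2.25, 5.75 and 8.33 CPM with Esrrb+Nanog, at 9.50, 8.06 and 7.65 CPM with Esrrb, and at 19.8, 18.8 and 17.0 CPM in NanogKO. The NanogKO libraries lay above all others, and the Esrrb+Nanog libraries were spread widely and overlapped the Esrrb libraries. Lef1 fell in Esrrb cells (log2 change -1.14 ± 0.30 (SE), adjusted p = 0.0074) and in Esrrb+Nanog cells (log2 change -1.76 ± 0.31 (SE), adjusted p = 0.000498) against NanogKO cells. Between the Esrrb+Nanog and Esrrb lines it was not called (log2 change -0.62 ± 0.31 (SE), adjusted p = 0.225), but was called without Esrrb+Nanog replicate 3 (log2 change -1.08, adjusted p = 0.04, range 0.000709 to 0.446 over its alternatives). Without Esrrb+Nanog replicate 1 that log2 change was -0.24.

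Tcf7l2 (ENSMUSG00000024985, chromosome 19, 55741820 to 55933654), the main TCF of the adult gut, was lowest in Esrrb cells. It was at 12.1, 11.7 and 13.0 CPM with Esrrb+Nanog, at 8.57, 7.08 and 8.38 CPM with Esrrb, and at 10.3, 11.7 and 9.57 CPM in NanogKO. The Esrrb libraries lay below all others, and the Esrrb+Nanog and NanogKO lines overlapped. Tcf7l2 fell in Esrrb cells against NanogKO cells (log2 change -0.39 ± 0.12 (SE), adjusted p = 0.0169), a call that also ended without Esrrb replicate 2 (adjusted p = 0.0689, range 0.00898 to 0.0689 over its alternatives). It rose in Esrrb+Nanog cells against Esrrb cells (log2 change 0.61 ± 0.12 (SE), adjusted p = 0.00591) and was not called in Esrrb+Nanog cells against NanogKO cells (log2 change 0.22 ± 0.12 (SE), adjusted p = 0.132).

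**Figure D3:**
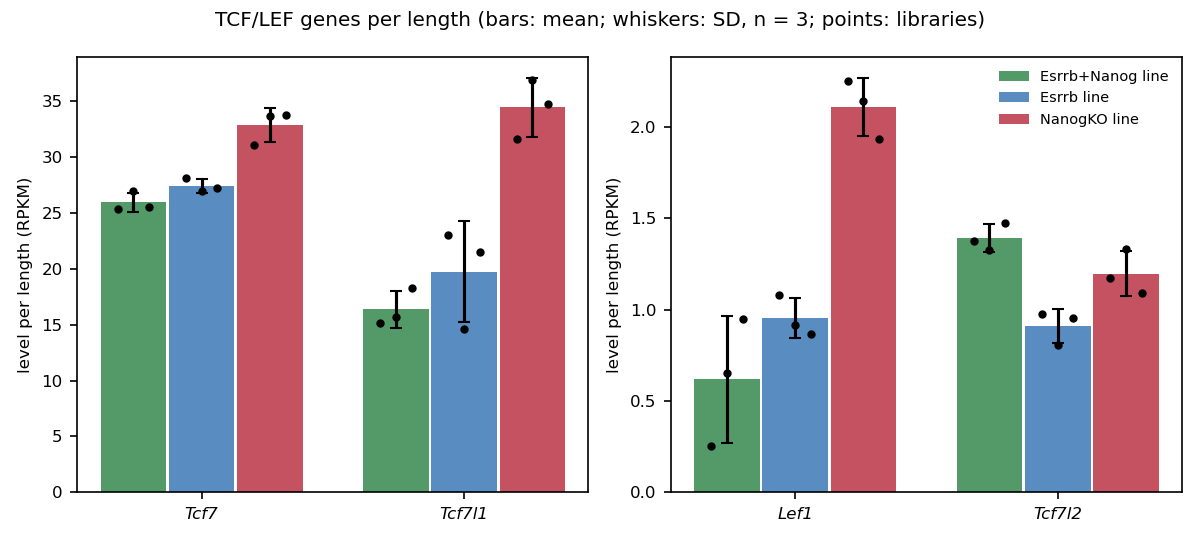
Levels per length (RPKM, vertical axis) of the 4 TCF/LEF genes in the Esrrb+Nanog, Esrrb and NanogKO lines, with bars for the mean, whiskers for the SD and points for the 3 libraries. Tcf7 and Tcf7l1 (left panel) lie over 10 RPKM in every library, and Lef1 and Tcf7l2 (right panel, on another scale) under 3 RPKM.

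Summed per length, the 4 TCF/LEF genes were at 44.3 ± 2.1 RPKM in Esrrb+Nanog cells, 49.0 ± 5.2 in Esrrb cells and 70.6 ± 4.0 in NanogKO cells (SD, n = 3 each). Tcf7l1 made up 36.9% ± 2.4 of that sum in Esrrb+Nanog cells, 39.9% ± 5.3 in Esrrb cells and 48.7% ± 1.0 in NanogKO cells. Tcf7 made up 58.6% ± 2.9, 56.3% ± 5.2 and 46.6% ± 0.93 in the same lines. Tcf7l1 and Tcf7 were thus about level in NanogKO cells, and Tcf7 exceeded Tcf7l1 in every other library. For the share of Tcf7l1, an exact two-sided permutation test gave p = 0.1 in Esrrb cells and in Esrrb+Nanog cells against NanogKO cells, the smallest p that 3 against 3 libraries allow, and 0.4 between the Esrrb+Nanog and Esrrb lines. Over the 12 share differences computed, the adjusted values were 0.133, 0.133 and 0.436.

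Beyond these 10, 93 other Wnt pathway genes were listed in 8 roles, and 76 of them were tested. The lists were chosen with earlier results of these data known. Some of the 76, such as Wnt4, Wnt10a and Rspo4, passed the filter on low counts only through the cells where they are high. The shares of called genes below are therefore a description. In Esrrb cells against NanogKO cells 16 rose and 36 fell, which is 68.4% of those tested against 48.5% of all genes, with a median log2 change of -0.19. Without NanogKO replicate 2, 15 rose and 25 fell of 77 tested (51.9%, against 41.4% of all genes). In Esrrb+Nanog cells against NanogKO cells 15 rose and 32 fell (61.8%, against 54.4% of all genes), and without NanogKO replicate 2, 15 rose and 28 fell (55.8%, against 48.6%). In Esrrb+Nanog cells against Esrrb cells 6 rose and 7 fell (17.1%, against 13.2% of all genes). The counts by role below are to be read beside these shares of all genes. Whether any single role held more calls than all genes was not tested.

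**Figure D4:**
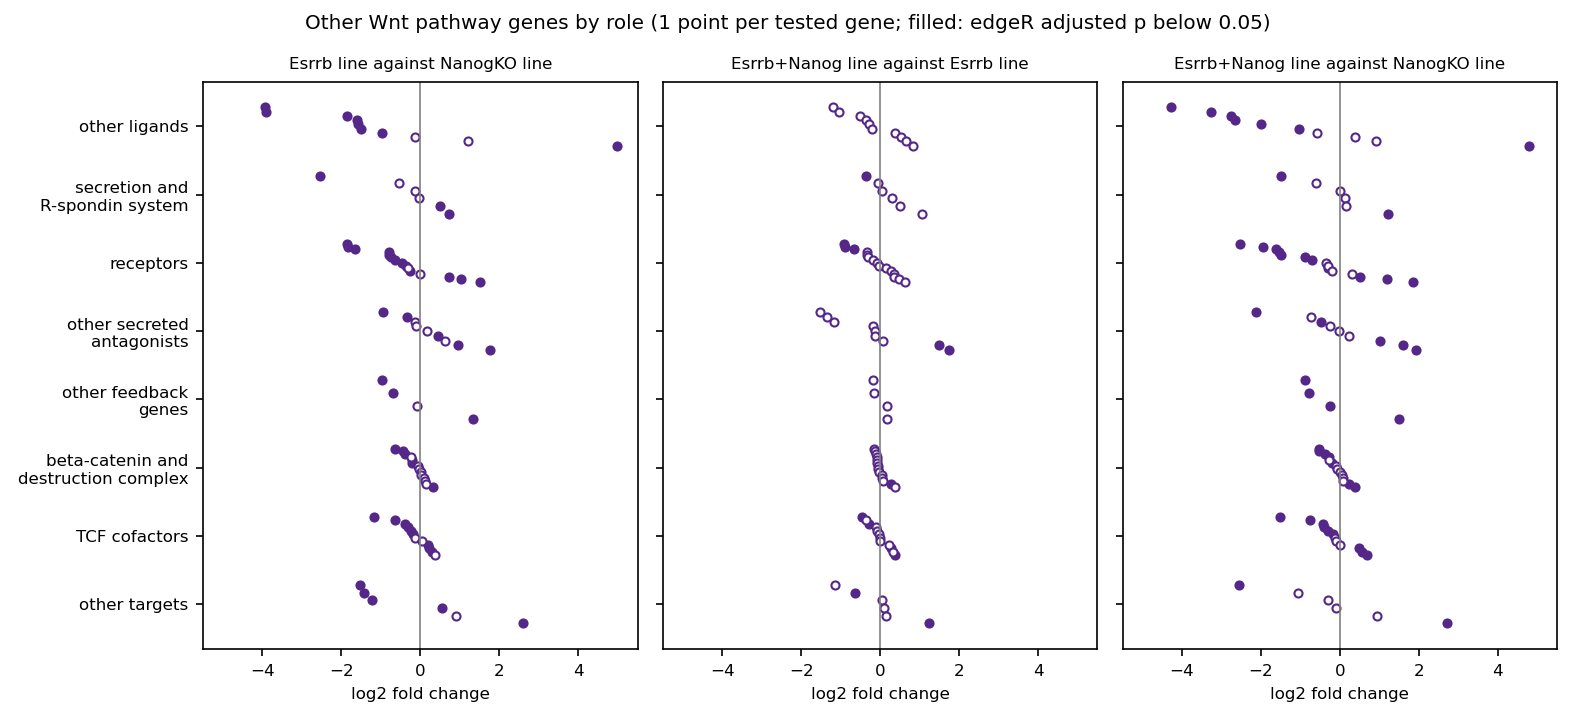
Log2 fold changes (horizontal axis) of the 76 other tested Wnt pathway genes by role, 1 point per gene, filled where edgeR called them, in the 3 comparisons. Ligands and receptors spread widely and mostly to the left against NanogKO cells, while genes of beta-catenin and its destruction complex stay within a narrow band around 0.

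Of the 18 other ligands, 10 were tested. In Esrrb cells against NanogKO cells 7 fell and only Wnt10a rose, and without NanogKO replicate 2, 5 fell, 1 rose and 5 were not called of 11 tested. Wnt4 passed the filter only through NanogKO libraries and Wnt10a only through the lines with added Esrrb, so each was tested because of the cells where it is high. In Esrrb+Nanog cells against NanogKO cells 6 fell and 1 rose (6 and 2 of 11 without NanogKO replicate 2). In the main edgeR fit, with all libraries and the default filter, none of the 10 was called in Esrrb+Nanog cells against Esrrb cells. There Wnt5a was at a log2 change of -1.19 (adjusted p = 0.118), and was called lower without Esrrb+Nanog replicate 3 (-2.28, adjusted p = 0.00572) and with no filter on low counts (adjusted p = 0.0019). Wnt9a (0.82, adjusted p = 0.0762) was called higher there without NanogKO replicate 1 (adjusted p = 0.046) and with no filter (adjusted p = 0.0365). Wnt7b, a ligand of epithelia, averaged 0.591 ± 0.18 CPM in Esrrb+Nanog cells, 0.364 ± 0.13 in Esrrb cells and 5.64 ± 1.3 in NanogKO cells (log2 change -3.93, adjusted p = 1.59e-06 in Esrrb cells against NanogKO cells). Wnt9a averaged 1.43 ± 0.17 CPM in Esrrb+Nanog cells, 0.817 ± 0.19 in Esrrb cells and 2.93 ± 0.85 in NanogKO cells, and fell in Esrrb cells (log2 change -1.85, adjusted p = 0.000143). Wnt5a, which often signals without beta-catenin, averaged 0.527 ± 0.49 CPM in Esrrb+Nanog cells, 1.25 ± 0.40 in Esrrb cells and 3.67 ± 0.19 in NanogKO cells, and fell in Esrrb+Nanog cells against NanogKO cells (log2 change -2.76, adjusted p = 0.000201), with a log2 change of -3.85 without Esrrb+Nanog replicate 3. By mean CPM per gene, Wnt6 was the only ligand of the 19 above 2 CPM in the lines with added Esrrb.

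Receptor genes, all 15 tested, gave 3 higher and 10 lower in Esrrb cells and 3 higher and 8 lower in Esrrb+Nanog cells, both against NanogKO cells. Without NanogKO replicate 2 the counts were 3 and 9 in Esrrb cells and 3 and 8 in Esrrb+Nanog cells. Fzd5, a Frizzled receptor, averaged 244 ± 15 CPM in Esrrb+Nanog cells, 192 ± 36 in Esrrb cells and 67.4 ± 5.4 in NanogKO cells, and rose in Esrrb cells against NanogKO cells (log2 change 1.51, adjusted p = 1.59e-06) and in Esrrb+Nanog cells against NanogKO cells (log2 change 1.85, adjusted p = 2.58e-07). Fzd7, the Frizzled best known in embryonic stem cells, averaged 138 ± 13 CPM in Esrrb+Nanog cells, 258 ± 24 in Esrrb cells and 405 ± 14 in NanogKO cells. It fell in Esrrb cells against NanogKO cells (log2 change -0.65, adjusted p = 6.20e-05), in Esrrb+Nanog cells against Esrrb cells (log2 change -0.90, adjusted p = 6.44e-05) and in Esrrb+Nanog cells against NanogKO cells (log2 change -1.55, adjusted p = 8.48e-08). Fzd2 averaged 7.90 ± 0.70 CPM in Esrrb+Nanog cells, 12.5 ± 0.94 in Esrrb cells and 45.6 ± 11 in NanogKO cells, and fell in Esrrb cells against NanogKO cells (log2 change -1.86, adjusted p = 2.69e-06). In Esrrb+Nanog cells against Esrrb cells 3 receptors fell and none was called higher, among those that fell Fzd8 at 4.19 ± 0.66 CPM in Esrrb+Nanog cells, 7.68 ± 0.38 in Esrrb cells and 12.8 ± 2.3 in NanogKO cells (log2 change -0.88, adjusted p = 0.00472). The third, Fzd2 (log2 change -0.66, adjusted p = 0.0206), was not called there without Esrrb+Nanog replicate 2 (adjusted p = 0.0794) or 3 (0.0622) or Esrrb replicate 1 (0.0817). Fzd5 was at a log2 change of 0.34 there (adjusted p = 0.066), and was called higher by DESeq2 (adjusted p = 0.037), with library totals alone (0.0288), with no filter on low counts (0.000137) and without Esrrb replicate 2 (log2 change 0.50, adjusted p = 0.00201). Fzd7, like Sfrp2, was lowest in Esrrb+Nanog, intermediate in Esrrb and highest in NanogKO cells.

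Genes of ligand release and the R-spondin system, which strengthens Wnt signals at the receptor, gave 2 higher and 1 lower of 6 tested in Esrrb cells, and 1 higher and 1 lower in Esrrb+Nanog cells, against NanogKO cells. The lower gene was Rspo4 in both lines. It passed the filter on low counts only through NanogKO libraries, so it was tested because of the cells where it is high. The R-spondin receptor Lgr4 averaged 154 ± 4.5 CPM in Esrrb+Nanog cells, 199 ± 14 in Esrrb cells and 140.2 ± 3.0 in NanogKO cells. It rose in Esrrb cells against NanogKO cells (log2 change 0.50, adjusted p = 4.66e-05) and fell in Esrrb+Nanog cells against Esrrb cells (log2 change -0.36, adjusted p = 0.00278). Its relative Lgr6 averaged 2.53 ± 0.28 CPM in Esrrb+Nanog cells, 1.79 ± 0.28 in Esrrb cells and 1.07 ± 0.20 in NanogKO cells, and rose in Esrrb+Nanog cells against NanogKO cells (log2 change 1.22, adjusted p = 0.000482) and in Esrrb cells against NanogKO cells (adjusted p = 0.0168). That call in Esrrb cells ended without Esrrb replicate 3 (0.0585), NanogKO replicate 1 (0.0681) or NanogKO replicate 3 (0.0598).

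Other antagonists, a list of secreted proteins that also held receptors such as Kremen1, gave 3 higher and 2 lower of 9 tested in each line with added Esrrb against NanogKO cells. The 2 lower were Kremen1 and Trabd2b in both lines. Sfrp1 and Kremen2 were higher in both, with Frzb in Esrrb cells and Sfrp5 in Esrrb+Nanog cells. Of these 9, 3 passed the filter only through the lines with added Esrrb (Dkk1, Frzb and Sfrp5) and Trabd2b only through NanogKO libraries. Without NanogKO replicate 2 Esrrb cells had 3 higher and 0 lower. Sfrp1, a relative of Sfrp2, went the opposite way from it, at 67.3 ± 13 CPM in Esrrb+Nanog cells, 24.0 ± 2.6 in Esrrb cells and 17.7 ± 1.9 in NanogKO cells. Sfrp1 rose in Esrrb+Nanog cells against Esrrb cells (log2 change 1.49, adjusted p = 5.51e-05) and against NanogKO cells (log2 change 1.92, adjusted p = 6.28e-07). It also rose in Esrrb cells against NanogKO cells (log2 change 0.43, adjusted p = 0.0209), a call that ended without Esrrb replicate 1 (0.0837), NanogKO replicate 1 (0.0796) or NanogKO replicate 3 (0.0951). Sfrp5 averaged 1.19 ± 0.55 CPM in Esrrb+Nanog cells, 0.351 ± 0.14 in Esrrb cells and 0.400 ± 0.14 in NanogKO cells and was called higher in Esrrb+Nanog cells against Esrrb cells (log2 change 1.74, adjusted p = 0.0153), a call that ended without Esrrb+Nanog replicate 3 (0.0627), Esrrb replicate 1 (0.074) or Esrrb replicate 3 (0.0538). Kremen1, a receptor of Dickkopf proteins, averaged 26.8 ± 2.2 CPM in Esrrb+Nanog cells, 29.6 ± 2.6 in Esrrb cells and 37.1 ± 4.6 in NanogKO cells. It fell in Esrrb+Nanog cells against NanogKO cells (log2 change -0.47, adjusted p = 0.00275) and in Esrrb cells against NanogKO cells (log2 change -0.33, adjusted p = 0.0219). The call in Esrrb cells ended without Esrrb replicate 2 (0.0822) or NanogKO replicate 2 (0.0815). Its relative Kremen2 averaged 1.10 ± 0.10 CPM in Esrrb+Nanog cells, 1.04 ± 0.22 in Esrrb cells and 0.544 ± 0.14 in NanogKO cells, and was called higher in Esrrb cells against NanogKO cells (log2 change 0.96, adjusted p = 0.0124), but not without Esrrb replicate 2 (0.06) or NanogKO replicate 3 (0.0683).

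Of the 4 other feedback genes, 1 rose and 2 fell in Esrrb cells, and 1 rose and 3 fell in Esrrb+Nanog cells, against NanogKO cells. Apcdd1, a membrane inhibitor that Wnt signals induce, rose as Axin2 and Notum did. It averaged 13.9 ± 0.90 CPM in Esrrb+Nanog cells, 12.2 ± 1.6 in Esrrb cells and 4.88 ± 0.24 in NanogKO cells (log2 change 1.32, adjusted p = 6.09e-06 in Esrrb cells, log2 change 1.51, adjusted p = 1.62e-06 in Esrrb+Nanog cells, both against NanogKO cells). Nkd2, the relative of Nkd1, averaged 5.03 ± 1.3 CPM in Esrrb+Nanog cells, 4.42 ± 0.49 in Esrrb cells and 8.62 ± 0.45 in NanogKO cells, and fell in Esrrb cells (log2 change -0.96, adjusted p = 0.000798) and in Esrrb+Nanog cells (log2 change -0.78, adjusted p = 0.00257) against NanogKO cells. The feedback genes thus did not move together.

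Ctnnb1, the gene of beta-catenin, was at 869, 885 and 923 CPM with Esrrb+Nanog, at 899, 885 and 966 CPM with Esrrb, and at 839, 854 and 826 CPM in NanogKO. It was not called in Esrrb cells (log2 change 0.13 ± 0.05 (SE), adjusted p = 0.0766) or Esrrb+Nanog cells (log2 change 0.09 ± 0.05 (SE), adjusted p = 0.199) against NanogKO cells, nor between the Esrrb+Nanog and Esrrb lines (adjusted p = 0.698). Of the 14 genes of beta-catenin and its destruction complex, 1 rose and 5 fell in Esrrb cells, and 2 rose and 5 fell in Esrrb+Nanog cells, against NanogKO cells. Not called were 8 and 7 of the 14. Of all tested genes 48.5% and 54.4% were called in these comparisons, so this role showed no excess of calls. Without NanogKO replicate 2 the counts were 1 and 4 in Esrrb cells and 2 and 3 in Esrrb+Nanog cells. The called changes were below 0.7 on the log2 scale in either direction. Tnks2, a tankyrase that marks AXIN for turnover, averaged 532 ± 42 CPM in Esrrb+Nanog cells, 576 ± 42 in Esrrb cells and 761 ± 32 in NanogKO cells (log2 change -0.52, adjusted p = 0.000111 in Esrrb+Nanog cells against NanogKO cells). Amer1, an APC-binding regulator, averaged 34.2 ± 1.6 CPM in Esrrb+Nanog cells, 36.3 ± 1.8 in Esrrb cells and 49.4 ± 3.4 in NanogKO cells (log2 change -0.53, adjusted p = 0.000111 in the same comparison). Gsk3b, a kinase of the complex, averaged 97.7 ± 0.30 CPM in Esrrb+Nanog cells, 80.2 ± 3.1 in Esrrb cells and 92.9 ± 4.0 in NanogKO cells. It fell in Esrrb cells against NanogKO cells (log2 change -0.21, adjusted p = 0.00908) and rose in Esrrb+Nanog cells against Esrrb cells (log2 change 0.29, adjusted p = 0.00712).

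Cofactors of the TCF proteins gave 3 higher and 6 lower of 12 in each line with added Esrrb against NanogKO cells, and 2 higher and 3 lower of them in Esrrb cells without NanogKO replicate 2. The kinase gene Hipk2 averaged 16.5 ± 2.9 CPM in Esrrb+Nanog cells, 21.0 ± 2.5 in Esrrb cells and 47.1 ± 6.1 in NanogKO cells, and fell in Esrrb cells (log2 change -1.16, adjusted p = 3.46e-05) and in Esrrb+Nanog cells (log2 change -1.52, adjusted p = 4.04e-06) against NanogKO cells. The corepressor gene Tle3 averaged 194 ± 10.4 CPM in Esrrb+Nanog cells, 149.6 ± 1.5 in Esrrb cells and 131 ± 7.4 in NanogKO cells, and rose in Esrrb+Nanog cells against Esrrb cells (log2 change 0.38, adjusted p = 0.00222) and against NanogKO cells (log2 change 0.56, adjusted p = 1.44e-05). Tle4, its relative, averaged 208 ± 19.6 CPM in Esrrb+Nanog cells, 288 ± 19 in Esrrb cells and 281 ± 17 in NanogKO cells, and fell in Esrrb+Nanog cells against Esrrb cells (log2 change -0.47, adjusted p = 0.00287). The corepressor gene Ctbp2 averaged 414 ± 5.7 CPM in Esrrb+Nanog cells, 501 ± 7.7 in Esrrb cells and 411 ± 24 in NanogKO cells and rose in Esrrb cells against NanogKO cells (log2 change 0.29, adjusted p = 0.00119).

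Other target genes gave 2 higher and 3 lower of 6 tested in Esrrb cells, and 1 higher and 1 lower in Esrrb+Nanog cells, against NanogKO cells. Cdx1, a homeobox factor that Wnt signals induce in the embryo, averaged 5.31 ± 1.4 CPM in Esrrb+Nanog cells, 4.88 ± 3.1 in Esrrb cells and 0.805 ± 0.16 in NanogKO cells, and rose in Esrrb cells (log2 change 2.60, adjusted p = 0.000447; 1.93 without Esrrb replicate 2) and in Esrrb+Nanog cells (log2 change 2.70, adjusted p = 0.000266) against NanogKO cells. Ccnd1, the gene of cyclin D1, averaged 27.6 ± 17 CPM in Esrrb+Nanog cells, 11.8 ± 0.71 in Esrrb cells and 34.1 ± 4.1 in NanogKO cells. It fell in Esrrb cells against NanogKO cells (log2 change -1.53, adjusted p = 0.00179). In Esrrb+Nanog cells against Esrrb cells it was called higher (log2 change 1.23, adjusted p = 0.0246). That call ended without Esrrb replicate 1 (adjusted p = 0.0799) or 3 (0.0599), and the log2 change was 0.60 without Esrrb+Nanog replicate 3. The Esrrb+Nanog libraries were at 15.9, 19.9 and 47.0 CPM. In Esrrb+Nanog cells against NanogKO cells Ccnd1 was not called (log2 change -0.30, adjusted p = 0.4245). It was called lower there without Esrrb+Nanog replicate 3 (-0.92, adjusted p = 0.000202) and with no filter on low counts (adjusted p = 0.02045). Myc averaged 63.6 ± 16 CPM in Esrrb+Nanog cells, 99.0 ± 5.4 in Esrrb cells and 67.8 ± 8.5 in NanogKO cells. It rose in Esrrb cells against NanogKO cells (log2 change 0.54, adjusted p = 0.01015) and fell in Esrrb+Nanog cells against Esrrb cells (log2 change -0.64, adjusted p = 0.0167). Sp8, the closest relative of Sp5 on the list, averaged 0.270 ± 0.10 CPM in Esrrb+Nanog cells, 0.616 ± 0.25 in Esrrb cells and 1.61 ± 0.58 in NanogKO cells, and fell in Esrrb+Nanog cells against NanogKO cells (log2 change -2.56, adjusted p = 0.000319).

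Over the 9 libraries, the genes outside the group whose log2 CPM followed Axin2 most closely were Akr1a1, Psmd4, Eya1, Usp1 and Cenpx, with Pearson's r of 0.998, 0.997, 0.997, 0.997 and 0.995. Eya1, a phosphatase and transcriptional cofactor gene, averaged 19.0 ± 0.88 CPM in Esrrb+Nanog cells, 19.7 ± 2.5 in Esrrb cells and 8.20 ± 0.12 in NanogKO cells. The points fall into the 3 lines, so r mainly records a shared contrast between NanogKO cells and the others. Of the 10126 genes compared, 621 had an r over 0.95.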

How the data were processed

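RNA was extracted from PECAM-positive, PDGFRA-negative sorted cells, depleted of ribosomal RNA and made into libraries with the NEBNext Ultra II kit, per the labels' protocols. The authors deposited raw read counts per Ensembl gene, in whole numbers, in a table of 15 library columns. The 9 columns whose names matched the samples were used, and the 6 others were not. The submitters' processing notes name bcl2fastq 2.19.1, STAR 2.5.3a and the build mm10. For the counting tool and its strand setting, the sources used here give nothing. Gene symbols, positions and exon lengths were taken from GENCODE M21, which held 52489 of the 52636 IDs.

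The deposited counts were fitted with edgeR 4.0.16 (R 4.3.3), using TMM scaling, its default filter on low counts (16198 genes left), 1 quasi-likelihood model of line over all 9 libraries with 6 residual degrees of freedom, and Benjamini-Hochberg adjustment over all tested genes. Standard errors were derived from the F statistic, as log2 change over root F. RPKM is CPM divided by the length of the merged exons. For genes similar to Axin2, log2 CPM used a prior count of 2. The 9 library totals set the counting precision given in the text. Replicates differed from each other beyond sampling noise.

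The 10 genes and all lists were chosen with earlier results of these data known. Outside the 10, each of 8 other Wnt lists gave, per comparison, the 2 called genes with the smallest adjusted p and 1 CPM or more on average in the higher line. Ctnnb1, Nanog and Esrrb were added as context, and the 5 genes with the highest correlation with Axin2 among genes with a mean of at least 5 CPM, predicted genes left out. The 16 alternatives were DESeq2's size factors, library totals alone, DESeq2 1.42.0, no filter on low counts, a minimum of 5 CPM in 3 libraries, a fit of the compared lines alone, the replicate number as a block, and each of the 9 libraries left out. Proteins were not analysed here.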

Additional observations from a re-analysis of the deposited data

How the results depend on the processing

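For the 10 genes, 466 of 477 alternative values kept the call or its absence, 6 lost the call and 5 gained it. For the 29 other named genes it was 1328 of 1367, with 25 lost and 14 gained. No change called in the main or the alternative fit reversed its direction. Where neither fit called a change, its sign could differ. For Axin2 in Esrrb+Nanog cells against Esrrb cells the log2 change was -0.03, and -0.09 to 0.08 over its alternatives. In Esrrb+Nanog cells against Esrrb cells, 5 of the 10 genes were called with no filter on low counts, against 3, with Lef1 and Tcf7l1 (adjusted p = 0.000709 and 0.0182) added; the cause was not tested. Over the libraries left out in turn, genes called in that comparison numbered 1105 to 2374, against 2135, with 1215 without Esrrb+Nanog replicate 2, 1105 without Esrrb replicate 1 and 1378 without Esrrb replicate 3, fits with fewer libraries. Of the 10 genes 3 to 4 were called there, 7 to 9 in Esrrb cells and 7 to 8 in Esrrb+Nanog cells against NanogKO cells. With library totals alone, 1386 genes were higher and 941 lower in Esrrb+Nanog cells against Esrrb cells, against 880 and 1255, and the median of all genes moved by 0.0638 on the log2 scale. The minimum of 5 CPM left Sp5 untested. Same-numbered libraries deviated with correlations of -0.0248 to 0.278, so the numbers were not taken to pair them; with the replicate number as a block, 7997, 2381 and 8946 genes were called in Esrrb cells against NanogKO cells, Esrrb+Nanog cells against Esrrb cells and Esrrb+Nanog cells against NanogKO cells, and 9, 3 and 8 of the 10. Sp5, with 4 to 78 reads per library, and Wnt6 in NanogKO cells, with 4 to 17, are limited by depth.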
